A study of Mus musculus with 13 samples.

Results

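Levels of 14953 genes were compared between the second and the first collection day of a circadian time course of mouse skin, with each pool of the second day set against the pool of the same time of day on the first. Whole back skin of male C57Bl6 mice was taken at postnatal day 46 while the hair follicles rested (telogen). The mice had standard chow at will, and the room was lit for 12 h from ZT0 and dark for 12 h from ZT12, where ZT stands for zeitgeber time in hours after the lights came on. Each collection is a single array of RNA pooled in equal amounts from 3 mice, and all pools share this strain, sex, age, diet and lighting. Day 1 comprised the collections at hours 2, 6, 10, 14, 18 and 22, and day 2 those at hours 26, 30, 34, 38, 42 and 46, which gives 12 of the 13 arrays of the series and 6 pairs, named here by their time of day (ZT2 to ZT22). The pool of hour 50 repeats ZT2 once more and entered no test. The 14953 genes are those of 19938 with a probe set of their own that passed a filter leaving out the dimmest 25%.

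Whole skin holds the keratinocytes of the epidermis and hair follicle, sebaceous glands, dermal fibroblasts and their collagen, vessels, resident immune cells such as macrophages, mast cells and T cells, and, below these, fat and a thin sheet of striated muscle. The circadian clock runs in most of these cells. CLOCK and BMAL1 (the product of Arntl) bind E-boxes, short DNA elements with the core CACGTG, and drive Per, Cry, Nr1d1 and Dbp, whose products feed back on the loop. Pools of a pair were taken at the same time of day, so the paired difference compares levels with the daily rhythm set aside. In whole tissue, fewer cells of a type and less RNA per cell cannot be told apart.

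Sequences are given for a few genes on which the results below turn. The microRNA gene Mir23a stood among the genes with the smallest p for a higher level on day 2, and Mirlet7c-1 among those with the smallest p for a day difference that differed between light and dark. Each array value belongs to the gene's probe set and does not separate the mature arms. The mature sequences are from RefSeq (GRCm38.p6), with the seed, bases 2 to 8, in capitals. The Mir23a arms lie on chromosome 8 and the Mirlet7c-1 arms on chromosome 16, all on the plus strand, and the 4 arms have 4 different seeds.
mmu-miR-23a-5p, chr8:84208527-84208548: gGGGUUCCuggggaugggauuu
mmu-miR-23a-3p, chr8:84208563-84208583: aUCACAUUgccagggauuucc
mmu-let-7c-5p, chr16:77599672-77599693: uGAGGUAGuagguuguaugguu
mmu-let-7c-1-3p, chr16:77599717-77599738: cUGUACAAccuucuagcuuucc

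The 250 bases before the start of 4 genes are shown because their families differed in single pairs described below. Krt31, a keratin of the hair shaft, and Krtap4-16, a keratin associated protein that cross-links hair keratins, differed between the pools of the ZT22 pair. Tef, a clock-controlled PAR bZIP transcription factor, and Per1, a clock repressor, differed between the pools of the ZT18 pair. Capitals mark TATAAA, the core of the TATA box, in the first pair of sequences and CACGTG in the second pair, searched on both strands of the RefSeq promoters (GRCm38.p6).
Krt31, minus strand, chr11:100050552-100050801: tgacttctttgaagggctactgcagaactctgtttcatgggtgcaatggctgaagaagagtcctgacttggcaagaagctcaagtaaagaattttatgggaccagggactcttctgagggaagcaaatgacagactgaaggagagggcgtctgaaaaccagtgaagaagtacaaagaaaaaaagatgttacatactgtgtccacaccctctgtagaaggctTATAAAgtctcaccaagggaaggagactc
Krtap4-16, minus strand, chr11:99851606-99851855: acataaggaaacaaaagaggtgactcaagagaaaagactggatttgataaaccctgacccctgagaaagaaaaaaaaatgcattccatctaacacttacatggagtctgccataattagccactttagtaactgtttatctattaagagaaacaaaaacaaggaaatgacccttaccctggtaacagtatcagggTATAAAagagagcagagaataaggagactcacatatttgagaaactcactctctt
Tef, plus strand, chr15:81802423-81802672: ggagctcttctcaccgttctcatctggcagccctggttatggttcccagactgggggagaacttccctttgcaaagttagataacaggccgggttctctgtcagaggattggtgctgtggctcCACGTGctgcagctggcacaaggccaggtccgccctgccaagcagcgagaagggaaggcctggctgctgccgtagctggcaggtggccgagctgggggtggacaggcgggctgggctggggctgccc
Per1, plus strand, chr11:69098699-69098948: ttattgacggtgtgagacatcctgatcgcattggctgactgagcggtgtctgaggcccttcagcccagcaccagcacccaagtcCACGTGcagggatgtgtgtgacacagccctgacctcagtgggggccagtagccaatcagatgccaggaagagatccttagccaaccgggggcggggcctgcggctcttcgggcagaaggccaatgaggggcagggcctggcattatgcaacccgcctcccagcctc

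TATAAA begins 29 bases before the start of Krt31 and 55 bases before that of Krtap4-16. It occurs in this window in 12 of 17 hair shaft keratin genes (70.6%) and 31 of 40 keratin associated protein genes (77.5%) with a promoter in the table, against 3872 of 27025 genes in all (14.3%). CACGTG begins 127 bases before the start of Tef and 166 before that of Per1. It occurs in 4 of 9 clock repressor genes and 1 of 7 clock output factor genes, against 1854 of 27025 genes (6.86%). These matches are a description of the letters.

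Genes that mark the tissue were bright on every array. Krt5, a keratin of basal keratinocytes, lay between 14200 and 15570 in linear intensity over the 13 pools, and Krt10, of the differentiating epidermis, between 13020 and 14940. Alb, a liver gene, was also bright in every pool, at 5263 to 18770, so liver transcripts were present throughout and varied in amount. Several pools stood apart in the amount of transcripts of other organs or of the hair shaft. Over 18 liver genes the summed intensity was 17571 at hour 46, 25459 at hour 34, 34372 at hour 22 and 38359 at hour 6, and reached 135080 at hour 10, 119510 at hour 38 and 111590 at hour 2. Over 44 keratin associated protein genes, which are made in the growing hair shaft, the sum was 204780 at hour 46 against 17276 to 30196 elsewhere. The hour 2 pool had the highest sum of 15 genes of the exocrine pancreas, at 7177 against 2828 to 4012 elsewhere. It also had the lowest sum of 31 collagen and matrix genes, at 118620 against 152210 to 174330. At hour 2 the 1194 olfactory and vomeronasal receptor genes, which mark the dim end of the arrays, had their lowest sum too, 105880 against 122160 to 170240. The mean correlation with the other arrays was lowest for hour 46 (0.939) and hour 2 (0.953) and lay between 0.958 and 0.978 for the rest. Where the text gives a gene list's median over all 6 pairs, it also gives the median without the ZT2 pair, and without the ZT2, ZT10 and ZT22 pairs (the last chosen after the data were seen).

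**Figure D1:**
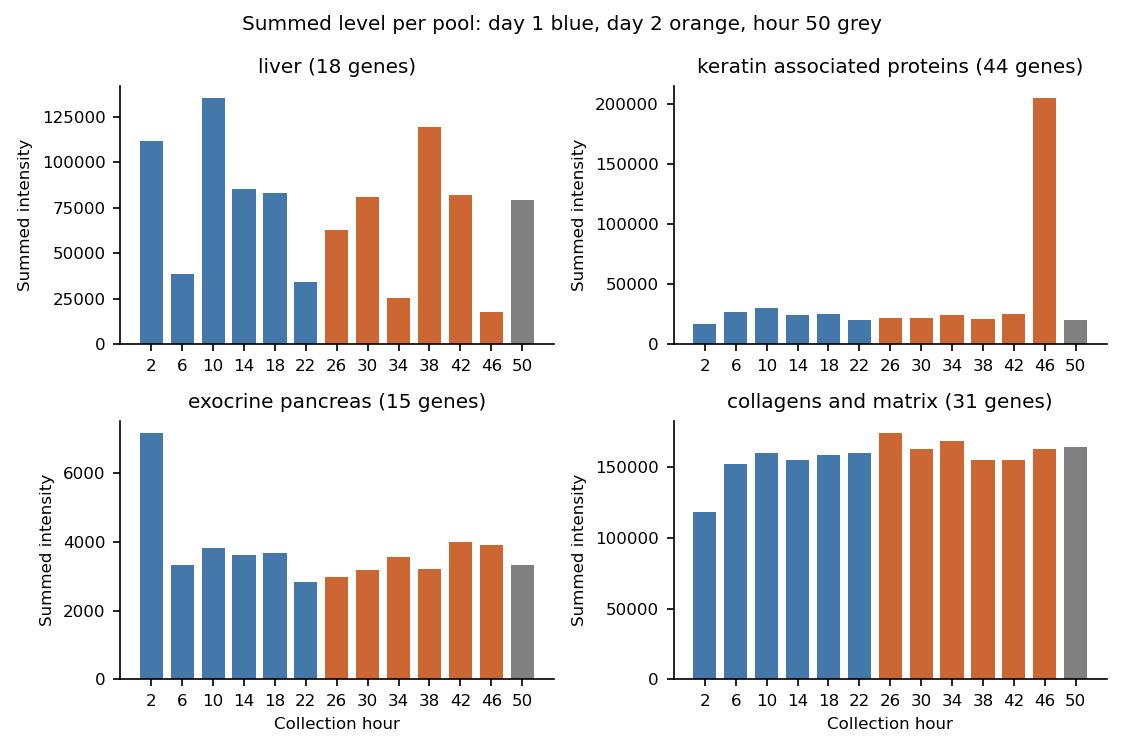
Summed linear intensity (y axis) of 4 gene lists in each of the 13 pools by collection hour (x axis), with day 1 in blue, day 2 in orange and hour 50 in grey; each bar is a single array. Liver genes vary from 17571 to 135080 between pools, keratin associated proteins stand out at hour 46 (204780), and hour 2 has the highest pancreas sum (7177) and the lowest collagen and matrix sum (118620).

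No gene passed the test of a day difference. At an adjusted p under 0.05 (limma, paired by time of day, Benjamini-Hochberg adjustment over all genes), 0 of 14953 genes were called (0% called) and the smallest adjusted p was 0.603. The unadjusted p was under 0.05 for 976 genes (6.53%), of which 458 (3.06%) were higher and 518 (3.46%) lower on day 2. The median difference over all genes was 0.01 in log2(intensity + 16), the scale of all differences below, and the median size of a difference was 0.08. Precision is limited by having 6 arrays a day, and the error is the spread between pools, since the mice of a pool were combined.

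The data bound most day differences tightly. The 95% interval of the difference, unadjusted for the number of genes, lay within 1.25-fold in either direction for 11114 genes (74.3%), within 1.5-fold for 14493 (96.9%) and within 2-fold for 14722 (98.5%). The interval reached a median of 0.17 to either side. The mean difference ran from -0.93 to 0.76, and 137 genes exceeded 0.5 in size. Among the widest were genes of the liver and the hair shaft. Cyp2c29, a cytochrome P450 of the liver, differed by -0.88 ± 0.67 (SE, 6 pairs), and Krt31 by 0.76 ± 0.59 (SE), with adjusted p of 0.609 and 0.611 in limma's paired test. In both, the pairs took both signs.

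**Figure D2:**
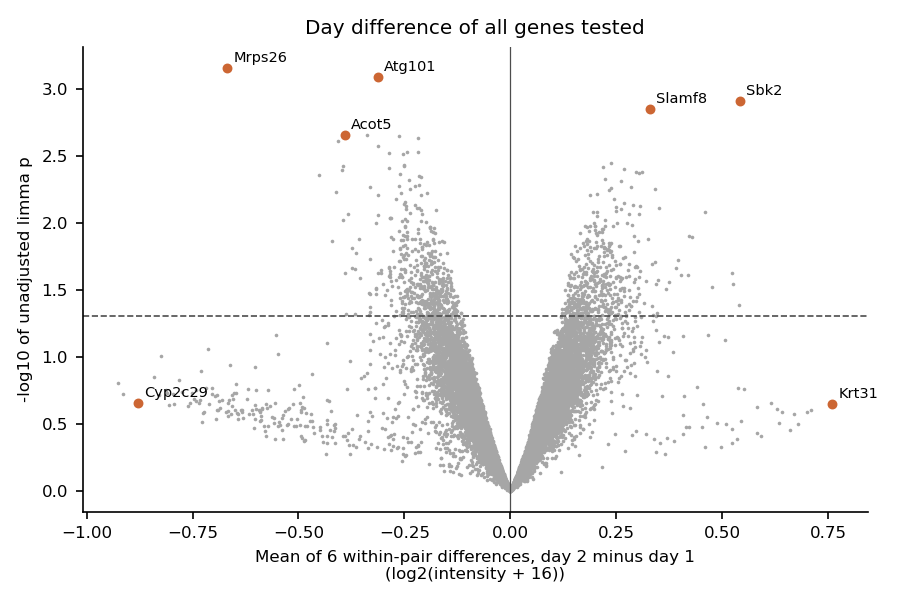
Mean of the 6 within-pair differences (x axis, log2(intensity + 16), day 2 minus day 1) against -log10 of the unadjusted limma p (y axis) for the 14953 genes tested; the dashed line marks the 0.05 level and named genes are in orange. The genes with the smallest p (Mrps26, Atg101, Sbk2, Slamf8) have moderate differences, while Cyp2c29 and Krt31, at the far left and right, are less certain.

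The 6 pairs had the same sign in 451 genes higher on day 2 (3.02% of those tested) and in 320 lower (2.14%). Every day 2 pool lay above every day 1 pool in 24 genes (0.161%) and below in 25 (0.167%). The genes described next are the 12 per direction with the smallest unadjusted p among those with the same sign in 6 pairs. All 24 had an adjusted p of 0.603, so none passed the test, and their sign and p are what chose them.

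The genes higher on day 2 were led by Sbk2, a gene of the SH3-binding domain kinase family. Its intensities at the 6 times were 333, 712, 504, 740, 414 and 329 on day 1 and 673, 892, 868, 746, 678 and 466 on day 2. The day 2 pool was the higher one at every time, by a mean of 0.54 ± 0.12 (SE, 6 pairs, 95% interval 0.28 to 0.81), though the days overlap because ZT14 was 740 and 746. At hour 50 Sbk2 was 765, within the range of day 2.

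Several of the other genes higher on day 2 are known from immune cells. Slamf8, a SLAM family receptor of macrophages, had 188, 181, 236, 182, 160 and 192 on day 1. On day 2 it had 225, 236, 248, 283, 208 and 256, a mean difference of 0.33 ± 0.07 (SE, 6 pairs). At hour 50 it was 195, inside the range of day 1. Rac2, a small GTPase of blood cells that serves the phagocyte oxidase, had 550, 812, 779, 750, 816 and 741 on day 1. Its day 2 values were 912, 901, 881, 890, 982 and 908, so the days did not overlap, with a difference of 0.30 ± 0.08 (SE, 6 pairs). Itgb2, the shared beta chain of the leukocyte integrins, had 471 to 632 on day 1 and 675 to 766 on day 2, again without overlap, and differed by 0.29 ± 0.08 (SE, 6 pairs).

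Tyk2, a Janus kinase of interferon and interleukin receptors, lay between 569 and 614 on day 1 and between 661 and 831 on day 2. Duoxa1, the maturation factor of the epithelial oxidase DUOX1, lay between 586 and 663 on day 1 and between 695 and 778 on day 2. These 2 genes also had days that did not overlap, and hour 50 was 662 for Tyk2 and 768 for Duoxa1. The ZT2 pair weighed on several of them. The ZT2 difference was 0.71 for Rac2 against 0.15 to 0.29 in the other pairs, 0.68 for Itgb2 against 0.11 to 0.25, and 0.53 for Tyk2 against 0.15 to 0.22. For Rac2 and Itgb2 the hour 2 pool was the lowest of day 1, at 550 and 471. For Tyk2 the hour 2 pool (571) was within the range of the other day 1 pools, and the hour 26 pool (831) was the highest of day 2.

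Siglec1, the sialoadhesin of macrophages, had 411, 606, 701, 726, 562 and 453 on day 1 and 713, 673, 815, 749, 763 and 619 on day 2, a difference of 0.34 ± 0.09 (SE, 6 pairs). Cd180, a Toll-like receptor relative of B cells and myeloid cells, differed by 0.26 ± 0.07 and Cd300c2, a CD300 family receptor, by 0.27 ± 0.07 (SE, 6 pairs). Il31ra, a subunit of the receptor for the itch cytokine IL-31, differed by 0.24 ± 0.06 and the sulfotransferase gene Sult5a1 by 0.22 ± 0.06 (SE, 6 pairs). In each of these 5 genes the days overlapped.

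Mir23a, whose mature arms are shown above, had 460, 547, 588, 661, 640 and 513 on day 1 and 719, 643, 658, 791, 680 and 696 on day 2. The day 2 pool was higher in each pair, by a mean of 0.30 ± 0.08 (SE, 6 pairs, 95% interval 0.12 to 0.47). At hour 50 its probe set was at 623, which is within the range of day 1.

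Among the genes lower on day 2, Mrps26, a protein of the small subunit of the mitochondrial ribosome, had the smallest unadjusted p of all genes (adjusted p = 0.603, limma). Its intensities were 454, 469, 341, 314, 348 and 444 on day 1 and 176, 350, 234, 275, 171 and 277 on day 2, a difference of -0.67 ± 0.13 (SE, 6 pairs, 95% interval -0.97 to -0.37). All 6 pairs were lower on day 2, the days overlapped between 314 and 350, and hour 50 was at 208.

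Uqcrb, a subunit of respiratory complex III, had 7515, 5777, 5471, 6219, 5539 and 5256 on day 1. Its day 2 values were 4692, 4879, 4720, 5326, 4304 and 4715, a difference of -0.31 ± 0.08 (SE, 6 pairs). The other 2 probe sets of Uqcrb gave -0.31 and -0.33, with 6 pairs lower in each, though probe sets of a gene may share sequence. Mpc1, of the mitochondrial pyruvate carrier, had 3968 to 4940 on day 1 and 3577 to 4168 on day 2. Atp5md, a small protein of the ATP synthase, had 3460 to 4807 on day 1 and 2693 to 3654 on day 2, with differences of -0.30 and -0.27 from its other probe sets and -0.24 from the one used.

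Atg101, a subunit of the complex that starts autophagy, had 780, 771, 568, 725, 602 and 634 on day 1 and 543, 597, 465, 608, 556 and 487 on day 2. It was lower in every pair, by a mean of 0.31 in log2 (SE 0.06), and was 601 at hour 50. Odc1, ornithine decarboxylase, the first enzyme of polyamine synthesis, had 1482, 1158, 935, 877, 1055 and 1248 on day 1 and 1075, 935, 865, 824, 757 and 819 on day 2. Its difference was -0.34 ± 0.08 (SE, 6 pairs), and its second probe set gave -0.19 with 1 pair higher. Hour 50 was at 1132, within the range of day 1.

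Dnaja1, a cochaperone of HSP70, differed by -0.26 ± 0.06 (SE, 6 pairs), and its second probe set gave -0.20 with 2 pairs higher. Ptger3, a receptor of prostaglandin E2, differed by -0.22 ± 0.05 (SE, 6 pairs). Acot5, an acyl-CoA thioesterase of peroxisomes, had 237 to 329 on day 1 and 184 to 228 on day 2, with no overlap. H2aw, a histone H2A gene, had 3108 to 4206 on day 1 and 2733 to 3071 on day 2, also with no overlap. Msantd3 differed by -0.25 ± 0.06 and G530011O06Rik by -0.39 ± 0.10 (SE, 6 pairs), with overlapping days.

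**Figure D3:**
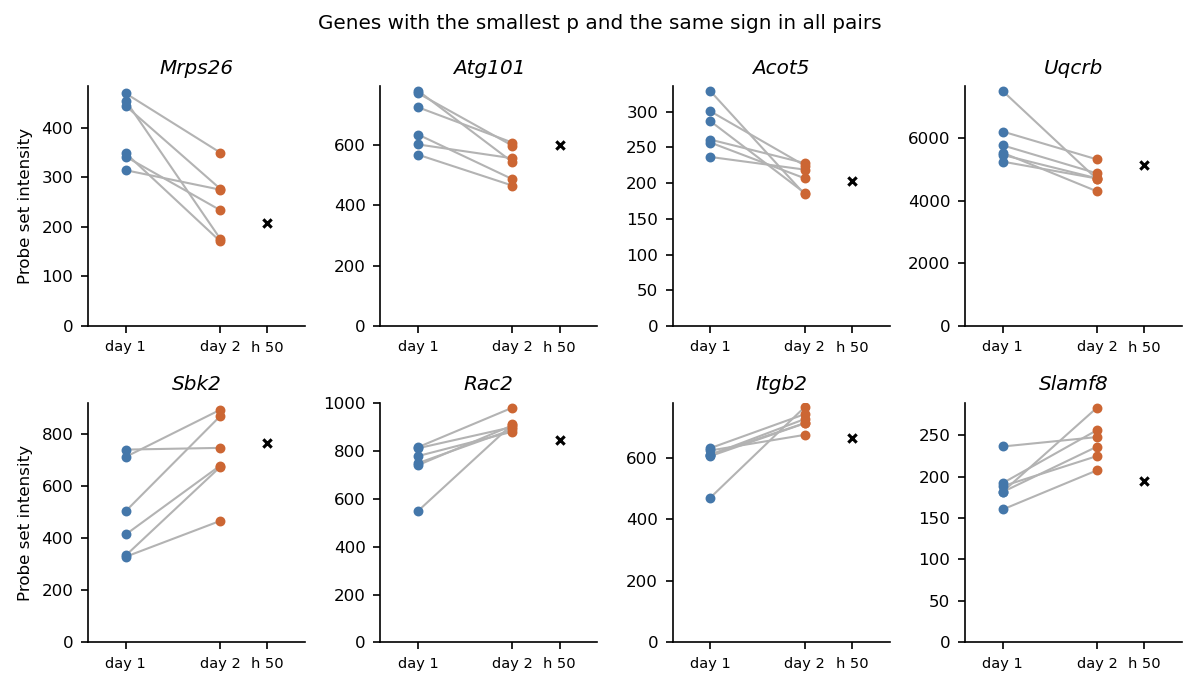
Linear probe set intensity (y axis, from 0) of 8 of the named genes on day 1 (blue) and day 2 (orange); each point is a pool, lines join the pools of the same time of day, and the cross is hour 50. In the upper row each day 2 pool lies below its day 1 partner and in the lower row above it, and the days do not overlap for Acot5, Rac2 and Itgb2.

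The hour 50 pool, which chose none of these genes, lay nearer the day 2 mean than the day 1 mean in 9 of the 12 genes lower on day 2 and in 6 of the 12 higher ones. Over all genes tested the same held for 8409 (56.2%). It held for 361 of the 518 genes lower at an unadjusted p under 0.05 (69.7%) and for 276 of the 458 higher (60.3%). Since hour 50 is at ZT2 and the day means cover all times, this comparison carries the rhythm of each gene.

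In 51 gene lists of pathways and cell types, 1 of which had no member tested, no member was called. The shares of all genes tested to hold beside the lists are 7925 of 14953 above 0, 3.06% higher and 3.46% lower at an unadjusted p under 0.05, and a median of 0.01.

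Of 30 immediate early genes, the genes induced first by a stimulus, 28 had a difference above 0. Their median was 0.12, and 7 were higher and 0 lower at an unadjusted p under 0.05. Egr1 had 1372, 2614, 2178, 2447, 2497 and 1708 on day 1 and 3015, 2427, 3045, 3053, 3020 and 2722 on day 2. It was higher on day 2 in 5 of 6 pairs, by a mean of 0.46 ± 0.14 (SE), and the highest day 1 pool (2614) was above the lowest of day 2 (2427). Nr4a1, an orphan nuclear receptor of this class, differed by 0.42 ± 0.14 and Klf2 by 0.17 ± 0.06 (SE, 6 pairs), each higher in 5 pairs. Of the 30 genes, 25 were above 0 without the ZT2 pair, with a median of 0.09, and without the ZT2, ZT10 and ZT22 pairs 23 were, with a median of 0.05.

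Of 20 macrophage and dendritic cell genes, 19 were above 0, with a median of 0.13 and 3 higher at an unadjusted p under 0.05. C1qb, a chain of complement C1q, had 3562, 4480, 4980, 4446, 4239 and 3988 on day 1 and 4955, 5169, 4965, 5154, 5109 and 4415 on day 2. It was higher in 5 pairs, and the ZT10 pair was 4980 against 4965. Fcer1g, the Fc receptor gamma chain, differed by 0.17 ± 0.06 and the lysosomal protein gene Cd68 by 0.28 ± 0.12 (SE, 6 pairs). The median of the list was 0.41 in the ZT2 pair and -0.01 to 0.11 in the others. Leaving out the ZT2 pair, 16 of the 20 were above 0, with a median of 0.07, and without the ZT2, ZT10 and ZT22 pairs also 16, with a median of 0.08. The summed intensity of the list was 44731 at hour 2 and 56381 to 62247 in the other day 1 pools, against 57611 to 66395 on day 2.

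Other immune lists had small positive medians. Of 10 T cell genes 9 were above 0 (median 0.15), of 26 chemokine and cytokine genes 20 (0.13) and of 24 interferon responsive genes 19 (0.07). Ccl5, a chemokine of T cells, was 1100 at hour 38 against 398 to 659 in the other 11 pools of the comparison. Cxcl10, an interferon-induced chemokine, was 801 at hour 38 against 275 to 500. Without the ZT2 pair, 9 T cell genes (median 0.06), 20 chemokine and cytokine genes (0.08) and 21 interferon responsive genes (0.06) were above 0. Without the ZT2, ZT10 and ZT22 pairs the counts were 7 of 10 (0.03), 15 of 26 (0.07) and 24 of 24 (0.14). Without those 3 pairs, 3 of 7 neutrophil genes (-0.0017) and 2 of 8 mast cell genes (-0.07) were above 0, against 6 (0.12) and 7 (0.09) with all pairs. With only the ZT2 pair left out, 5 neutrophil genes (0.08) and 5 mast cell genes (0.02) were above 0. Oas2, an antiviral enzyme gene of the interferon list, was higher in 6 of 6 pairs by a mean of 0.29 ± 0.09 (SE). Tnf was higher in 5 pairs, by 0.25 ± 0.07, while the alarmin gene Il33 was lower in 5, by 0.26 in log2 (SE 0.10).

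Collagens and matrix genes were above 0 in 27 of 30, with a median of 0.15. The ZT2 pair had a median of 0.69 and 6 members over 2-fold, and the medians of the other pairs ran from -0.04 to 0.11. Eln, elastin, was 1038 at hour 2 and 2441 at hour 26, a single-pair difference of 1.22, and lay between 1307 and 2027 in the other 10 pools. Mmp2, a gelatinase, was 5725 at hour 2 and 8130 to 9655 in the other day 1 pools, against 8855 to 11080 on day 2. Plod1, a collagen lysyl hydroxylase, was 1940 at hour 2 and 2870 to 2974 elsewhere on day 1, against 2978 to 3564 on day 2, so its days did not overlap. Without the ZT2 pair, 22 of the 30 were above 0 and the median was 0.05. Without the ZT2, ZT10 and ZT22 pairs, 22 were above 0 and the median was 0.02.

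Oxidative phosphorylation genes were below 0 in 46 of 50, with a median of -0.10, and 9 were lower and 0 higher at an unadjusted p under 0.05. Besides Uqcrb, Cyc1, cytochrome c1 of complex III, had 4321, 4418, 3512, 3944, 3411 and 3560 on day 1 and 3783, 3221, 2875, 3656, 3386 and 2654 on day 2. It was lower in 6 of 6 pairs, by a mean of 0.25 in log2 (SE 0.07). Cycs, cytochrome c, was lower in 6 pairs by 0.18 (SE 0.06). Of the 50 genes, 7 were lower and 2 were higher in all 6 pairs. The pair medians ran from -0.30 at ZT22 to 0.03 at ZT18. With the ZT2 pair left out 47 of the 50 were below 0, with a median of -0.09, and without the ZT2, ZT10 and ZT22 pairs 37 were, with a median of -0.04.

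Proteasome subunits were below 0 in 30 of 31, with a median of -0.10. Psma3, an alpha subunit of the core particle, had 2197 to 2921 on day 1 and 1699 to 2190 on day 2, without overlap, and a difference of -0.24 ± 0.08 (SE, 6 pairs). The median of the list was -0.34 in the ZT22 pair and -0.16 in the ZT2 pair, and lay between -0.09 and 0.01 in the other 4. All 31 were below 0 without the ZT2 pair, with a median of -0.08, and without the ZT2, ZT10 and ZT22 pairs 21 of the 31 were below 0, with a median of -0.02.

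Of 22 unfolded protein response genes 18 were below 0 (median -0.08), and of 15 heat shock genes, mostly cytosolic, 10 were (-0.11). The counts without the ZT2 pair were 19 (-0.08) and 12 (-0.09), and without the ZT2, ZT10 and ZT22 pairs 17 (-0.04) and 12 (-0.06). Hspe1, the mitochondrial HSP10, had 2649, 1366, 1492, 1582, 1516 and 2218 on day 1 and 1370, 1240, 1256, 1348, 1333 and 1330 on day 2. It was lower in all 6 pairs, by a mean of 0.41 in log2 (SE 0.11), with the widest gaps at ZT2 and ZT22, and its other probe set gave -0.43. Manf, an ER stress protein, was lower in 6 pairs by 0.21 (SE 0.06). Of 32 cytosolic ribosomal protein genes 27 were below 0 (median -0.07). Without the ZT2 pair 24 were (-0.04), and without the ZT2, ZT10 and ZT22 pairs 16 were (median 0.0009).

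Sterol synthesis genes were below 0 in 17 of 18, with a median of -0.12. None had an unadjusted p under 0.05. All 18 were below 0 without the ZT2 pair (-0.12), and without the ZT2, ZT10 and ZT22 pairs 12 were (-0.05). Fatty acid synthesis genes were below 0 in 13 of 18 (median -0.03) and adipocyte genes in 12 of 18 (-0.02). Without the ZT2 pair the counts were 16 (-0.07) and 14 (-0.07), and without the ZT2, ZT10 and ZT22 pairs 11 (-0.05) and 16 (-0.07). Dgat2, which makes triglyceride, was lower in 6 of 6 pairs by a mean of 0.15 in log2 (SE 0.06).

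For lists of the epidermis and the cell cycle the median was -0.05 for 27 epidermal differentiation genes, 0.01 for 15 basal keratinocyte genes, -0.01 for 25 DNA replication genes (0.005 with arrays shifted to a common median) and -0.04 for 23 mitosis genes. These medians were, without the ZT2 pair, -0.03, -0.01, -0.03 and -0.07, and without the ZT2, ZT10 and ZT22 pairs -0.06, 0.0043, 0.03 and -0.12. Of the 23 mitosis genes, 17 were below 0 with all pairs, 20 without the ZT2 pair and 23 without the ZT2, ZT10 and ZT22 pairs. Of the 27 epidermal differentiation genes only 6 were above 0, without the ZT2 pair 8 and without the ZT2, ZT10 and ZT22 pairs 5. In this list 2 genes were lower in 6 of 6 pairs and 1 was higher. The higher one was Tgm3, a transglutaminase of the cornified layer and hair. Its mean difference was 0.34 ± 0.12 (SE), with its highest value, 550, in the hour 46 pool. Axin2, a target of Wnt signalling, was higher in 6 pairs by 0.15 ± 0.05. Among 22 genes of resting follicle stem cells and quiescence 18 were above 0 (median 0.09), without the ZT2 pair 14 (0.03) and without the ZT2, ZT10 and ZT22 pairs 12 (0.0041). Among 19 regulators of the growing follicle 17 were above 0 (0.07), without the ZT2 pair 13 (0.02) and without the ZT2, ZT10 and ZT22 pairs 3 (-0.04). Nfatc1, a quiescence factor of bulge stem cells, was higher by 0.81 in the ZT2 pair and by 0.06 to 0.17 in the others.

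The dim end of the arrays also had a positive median. Of 141 olfactory and vomeronasal receptor genes that passed the filter 128 were above 0, with a median of 0.10, from -0.20 at ZT14 to 0.48 at ZT22. Of the 141, 119 were above 0 without the ZT2 pair (0.06), and without the ZT2, ZT10 and ZT22 pairs 42 were (-0.04). These receptors are known from the sensory neurons of the nose and served here as a measure of the dim end. With their score as a covariate of the fit, the medians were 0.09 for immediate early, 0.12 for macrophage, 0.13 for collagen and matrix, -0.05 for proteasome and -0.06 for oxidative phosphorylation genes. The part of the dim end and of the hour 2 pool in the list medians was otherwise not tested.

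**Figure D4:**
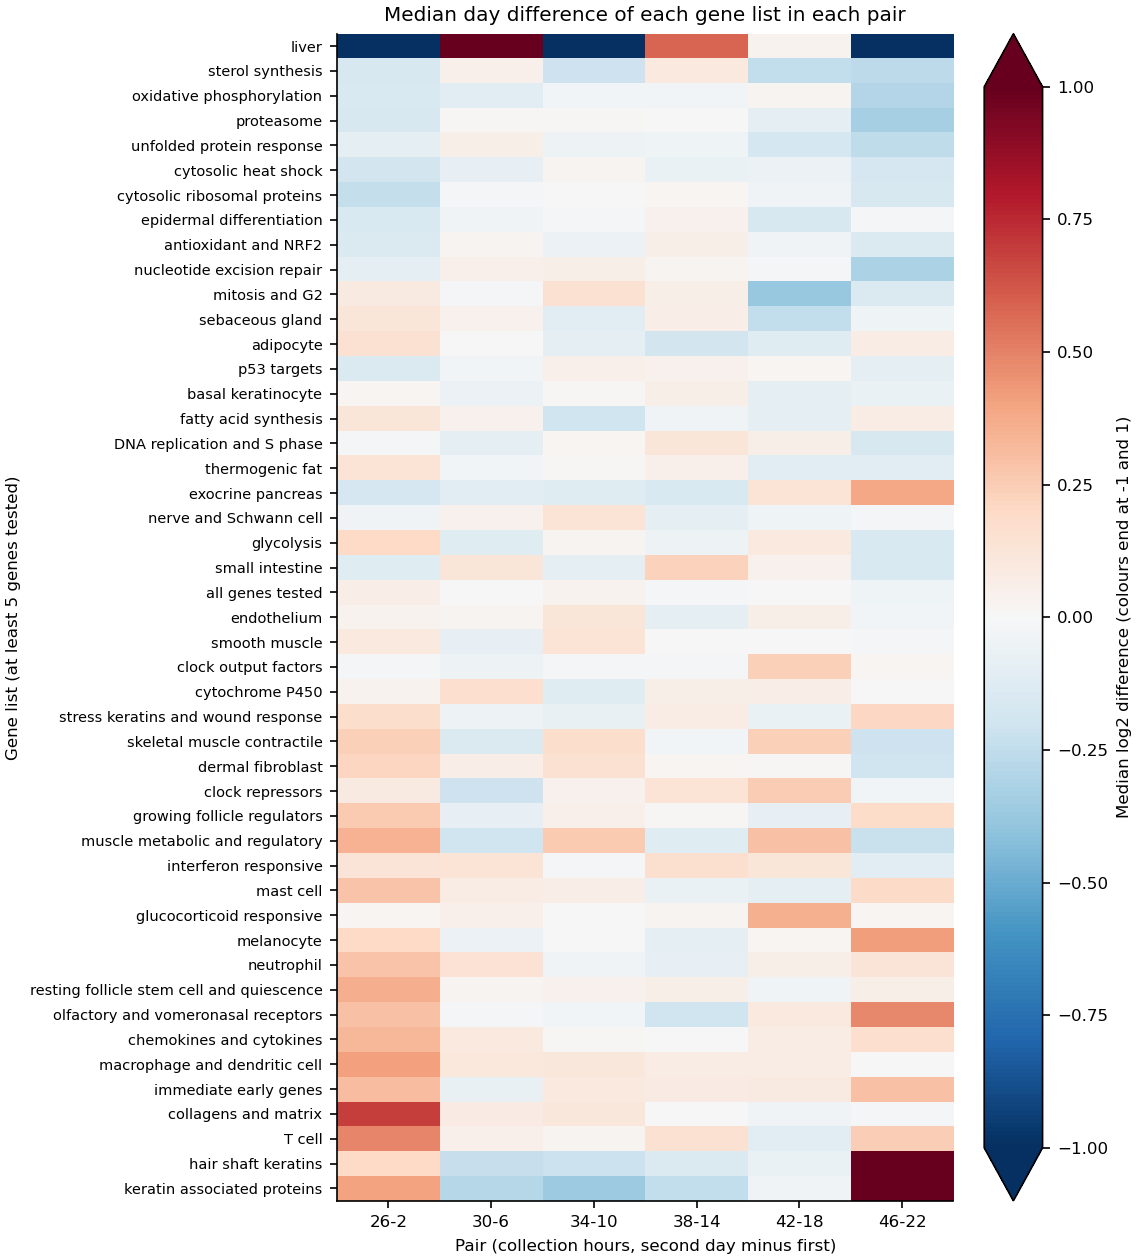
Median log2 difference (colour, day 2 minus day 1) of every gene list with at least 5 genes tested (rows, ordered by the mean over pairs) in each of the 6 pairs (columns, collection hours). Liver genes change sign between pairs, keratin associated proteins and hair shaft keratins have medians of 3.41 and 2.45 in hour 46 minus hour 22, and collagens and matrix are highest in hour 26 minus hour 2.

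A single pair sets 1 pool of 3 mice against another and has no test. Over 2-fold, the ZT2 pair had 65 genes higher (0.435%) and 168 lower (1.12%), the ZT6 pair 160 (1.07%) and 3 (0.0201%), and the ZT10 pair 1 (0.00669%) and 294 (1.97%). The dark pairs had 20 higher (0.134%) and 6 lower (0.0401%) at ZT14, 9 (0.0602%) and 5 (0.0334%) at ZT18, and 68 (0.455%) and 104 (0.696%) at ZT22.

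In the light pairs the liver genes led. At ZT10 all 18 liver genes were over 2-fold lower on day 2, at ZT6 16 of them were over 2-fold higher, and at ZT2 11 were lower. Cyp2c29 was 4381 at hour 10 and 229 at hour 34, 17.9-fold lower, but 582 at hour 6 and 2226 at hour 30, 3.75-fold higher. Mat1a, a liver methionine adenosyltransferase, was 5571 at hour 10 and 321 at hour 34, and Cyp4a31, a fatty acid hydroxylase, was 1035 and 46.6. Fbp1, an enzyme of gluconeogenesis, was 571 at hour 6 and 2125 at hour 30, and Ugt2b34, a glucuronosyltransferase, was 199 and 775. Alb, albumin, was 18490 at hour 10 and 8511 at hour 34. Over the list the median difference was -1.11, 1.41, -3.23, 0.58, 0.04 and -1.22 in the 6 pairs in order, so the sign turned between pairs. With all pairs the 18 liver genes were below 0 (median -0.60), as they were without the ZT2 pair (-0.50), and without the ZT2, ZT10 and ZT22 pairs all 18 were above 0 (0.68).

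The ZT2 pair also held the pancreas genes. Ctrb1, chymotrypsinogen, was 2958 at hour 2 and 181 at hour 26, 15.1-fold lower, and Cpa1, carboxypeptidase A1, was 1046 and 116. In the other 11 pools, hour 50 included, Ctrb1 stayed between 216 and 323 and Cpa1 between 165 and 237. Only 7 of the 15 pancreas genes passed the filter, and their median at ZT2 was -0.17. Akr1d1, a steroid reductase of the liver, completed the 3 largest differences of this pair, at 1186 and 262.

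In the ZT22 pair the hair shaft genes led. Krt31 was 459 at hour 22 and 11250 at hour 46, 23.7-fold higher, and 290 to 564 in the other 11 pools. Krtap19-3 was 323 and 11220, Krtap4-16 was 239 and 7540, and Krtap19-2 was 492 and 14560. Of the 68 genes over 2-fold higher in this pair, 32 were keratin associated proteins and 15 hair shaft keratins. The list medians were 3.41 for 35 keratin associated protein genes and 2.45 for 18 hair shaft keratin genes, against -0.36 to 0.41 and -0.23 to 0.20 in the other pairs. All 35 and all 18 genes were above 0 in the mean of the 6 pairs, with medians of 0.46 and 0.31. Without the ZT2 pair these were 0.48 and 0.31, and without the ZT2, ZT10 and ZT22 pairs all of these genes were below 0, with medians of -0.18 and -0.11. The same pair had 16 of the 18 liver genes over 2-fold lower, and the hour 46 pool had the lowest liver sum.

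At ZT14 the 3 largest differences were in cytochrome P450 genes and a transporter gene. Cyp2b9 was 840 at hour 14 and 3957 at hour 38, 4.64-fold higher, and Cyp4a12b was 1472 and 466, 3.09-fold lower. Slc15a2, a transporter of small peptides, was 164 and 535, and ranged from 236 to 684 in the other pools.

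At ZT18 some clock genes differed. Over 2-fold higher were 2 of 9 clock output factors and 0 of 12 clock repressors, and none was over 2-fold lower. The list medians were 0.24 and 0.25, against -0.05 to 0.02 and -0.20 to 0.14 in the other pairs. Dbp, an output factor of the clock, was 468 at hour 18 and 995 at hour 42, 2.09-fold higher, and Tef was 752 and 1625, 2.14-fold higher. Per1 was 982 and 1762 and Per2 455 and 879, while Nr1d1, the REV-ERB alpha repressor, was 1988 and 1113, 1.78-fold lower. Pdk4, a kinase that turns glucose oxidation off in muscle and fat, had the largest difference of this pair, 1428 and 3926, or 2.73-fold. Polr2k, a small subunit of the RNA polymerases, was 275 and 97.1, and Rny1, a small noncoding RNA gene, was 676 and 266. The median of 20 glucocorticoid responsive genes was 0.36 in this pair and 0.00 to 0.05 in the others. The median of 23 mitosis genes was -0.38, against -0.15 to 0.15.

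Over all 6 pairs the clock genes had differences near 0 with wide intervals. Arntl had 1594, 646, 370, 774, 1663 and 2065 on day 1 and 1661, 828, 409, 670, 1329 and 1627 on day 2, a mean difference of -0.05 (95% interval -0.27 to 0.17). Dbp had 940, 5889, 6524, 3160, 468 and 434 on day 1 and 684, 4552, 6225, 4697, 995 and 458 on day 2, a mean difference of 0.14 (-0.28 to 0.56). Arntl was lowest at ZT10 on both days and highest at ZT22 on day 1 and ZT2 on day 2, and Dbp was highest at ZT10 and lowest at ZT22 on both days. Nr1d1 had 5021, 10540, 8196, 3510, 1988 and 1392 on day 1 and 5663, 9894, 8632, 4991, 1113 and 1460 on day 2 (-0.02, interval -0.34 to 0.31). Per2 had 162, 676, 1545, 1904, 455 and 455 on day 1 and 126, 421, 1537, 1768, 879 and 519 on day 2 (0.00, interval -0.39 to 0.39). The sign of the mean turns for Per2 and Nr1d1 under quantile normalization, and without the ZT18 pair for all 4 genes.

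**Figure D5:**
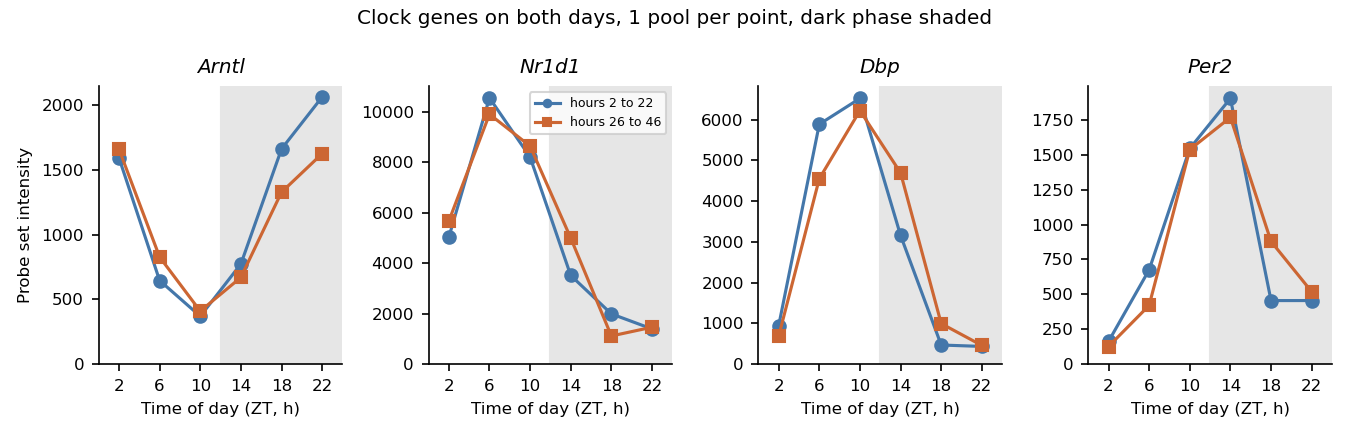
Linear probe set intensity (y axis, from 0) of Arntl, Nr1d1, Dbp and Per2 by time of day (x axis, ZT in h) on day 1 (blue circles) and day 2 (orange squares), 1 pool per point, with the dark phase shaded. Gaps between the days appear at several times, for example at ZT6 and ZT14 for Dbp. At ZT18 the day 2 pool is higher for Dbp (995 against 468) and Per2 (879 against 455) and lower for Nr1d1 (1113 against 1988).

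Whether the day difference itself differed between the 3 dark pairs and the 3 light pairs was tested in the same way. No gene was called (0 of 14953, limma with Benjamini-Hochberg adjustment, smallest adjusted p = 0.281), and 477 genes had an unadjusted p under 0.05, 56 with a larger and 421 with a smaller difference in the dark. Quantile normalization moved that split to 126 and 291. Leaving out the ZT6 pair turned it to 412 and 296.

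Cyp2g1, a cytochrome P450 best known from the olfactory mucosa, had the smallest p. It was 688, 680 and 815 in the light pools of day 1 and 297, 388 and 400 in those of day 2. In the dark pools it was 486, 382 and 324 on day 1 and 564, 439 and 395 on day 2. The light pairs were all lower and the dark pairs all higher on day 2, a difference of 1.21 ± 0.13 (SE, 3 against 3 pairs). At hour 50, also in the light, it was 605.

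Mirlet7c-1 took the opposite sides. Its light pools had 382, 337 and 318 on day 1 and 475, 501 and 431 on day 2, and its dark pools 383, 408 and 471 on day 1 and 339, 284 and 295 on day 2. The dark minus light difference was -0.86 ± 0.15 (SE, adjusted p = 0.969 in limma). Clmp, a cell adhesion molecule, gave -0.57 ± 0.11, Has2, a hyaluronan synthase, -0.67 ± 0.13 and Pde3a, a cyclic nucleotide phosphodiesterase, -0.57 ± 0.13 (SE). Has2 had its lowest day 1 level at ZT10 (306) and its lowest day 2 level at ZT14 (324). Arntl went the same way, higher on day 2 at ZT2, ZT6 and ZT10 and lower at ZT14, ZT18 and ZT22, by -0.47 ± 0.12 (SE).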

How the data were processed

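Deposited values are linear probe set intensities, 1 array per pool. The submitters' processing notes name PLIER 2.0 and Affymetrix Expression Console 1.1.1, and how arrays were normalized to each other is not given in the sources used here. Of 35557 probe sets, the platform annotation gave 1 gene for 21789 and several for 1621, and did not list 12147. Identifiers of 21698 were found in the RefSeq gene table. Where a gene had several probe sets (999 genes), the brightest was used. The deposited intensities were turned into log2(intensity + 16), without further normalization. A fold on this scale understates the change of dim genes.

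Day 2 minus day 1 was fitted with limma 3.58.1 (lmFit, eBayes) in R 4.3.3, taking the time of day as a replicate block. The pairing comes from the labels' collection hours. Deviations of same-time pools correlated at -0.32 to 0.42, so pools of the same time of day did not deviate together in every pair. At every time but ZT18, the highest correlation with a pool of another time was larger than that of the pair, for example 0.59 against -0.32 at ZT10. The fits without the block stand in the closing section. The dark against light comparison was fitted on the pair differences. The script was tested on simulated data. Labels give each hour as a separate pool, and p-values measure the spread between pools.

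The genes and lists were chosen with earlier results of these data known. Named genes are the 12 per direction with the smallest unadjusted p and the same sign in 6 pairs, members among the 3 with the smallest p of each list, the 5 with the smallest p for dark against light, the 3 with the largest difference in each pair, and 4 clock genes. Of the list members taken, 55 had an unadjusted p under 0.05, a limit set after the values were seen. Some of these are described, and others, such as Ttk, Klf9, Sdf2l1 and Chordc1, are not. Krt31, Alb, Eln, Tef and Per1 in single pairs were also chosen after their values were seen. Alternatives covered the offset, filter, normalization, probe set choice, block, array weights, prior, covariates and pairs left out. A list of mitochondrially encoded genes had no member tested.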

Additional observations from a re-analysis of the deposited data

Results flagged for a closer look

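The values here are day 2 minus day 1 differences in log2(intensity + 16). They stand apart because 1 of the 6 pairs lay far from the other 5 by Dixon's ratio. By this rule chance picks about 1 in 20 groups that were not chosen by their values. Many of the single genes here were named for a large difference in 1 pair, so that rate does not hold for them. None was tested further, and no cause was tested.

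Most involve the ZT2 pair, whose hour 2 pool was low in collagen and macrophage transcripts and high in pancreas transcripts. The ZT2 value was the highest of the 6 for the list medians of collagens and matrix (0.69, others -0.04 to 0.11), macrophage and dendritic cells (0.41, others -0.01 to 0.11) and resting follicle stem cells and quiescence (0.36, others -0.03 to 0.06). It was also the highest for the matrix genes Eln (1.22), Mmp2 (0.89) and Plod1 (0.87), and for Pdgfrb, a receptor of fibroblasts and pericytes (0.94). The same held for Nfatc1 (0.81), Oas2 (0.81), Rac2 (0.71), Itgb2 (0.68), Tyk2 (0.53), Fcer1g (0.43) and Gtf2h4, a subunit of the repair factor TFIIH (0.34). It was the lowest for Ctrb1 (-3.92), Cpa1 (-3.01) and the ribosomal protein gene Rps14 (-0.66).

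The ZT22 pair was the highest for keratin associated proteins (list median 3.41, others -0.36 to 0.41) and hair shaft keratins (2.45, others -0.23 to 0.20). Among single genes it was highest for Krtap19-3 (5.05), Krtap4-16 (4.89), Krtap19-2 (4.84) and Krt31 (4.57). The ZT18 pair was the highest for the list medians of glucocorticoid responsive genes (0.36, others 0.00 to 0.05) and clock output factors (0.24, others -0.05 to 0.02) and for Tef (1.096). It was the lowest for Polr2k (-1.36) and Rny1 (-1.29).

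The medians of all genes tested and of the 51 lists (1 with no member tested) were searched for a light-dark split. In 2 of them the 3 light pairs lay on 1 side of 0 and the 3 dark pairs on the other. Chance alone gives some such splits among so many medians, and the difference was not tested. The 4 clock activator genes had a mean of list medians of 0.07 in the light and -0.17 in the dark, a difference of -0.24. Over all genes tested the means were 0.03 and -0.02, a difference of -0.056.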

How the results depend on the processing

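No gene was called for the day difference or for dark against light under any of the alternatives run, so 0 called holds at every setting, and no named gene passed the threshold (lowest adjusted p over all of them 0.168). The 976 genes at an unadjusted p under 0.05 became 840 in the fit with no replicate block and 1310 with no replicate block and a 24 h curve, and the pairing changed no call. Their number (higher, lower) moved by over 1.5 times to 595 (275, 320) with the olfactory score as a covariate. With choices made after seeing the data, the liver score as a covariate gave 422 (177, 245), and testing every probe set gave 1804 (755, 1049). The lower genes became 323 without the ZT2, ZT10 and ZT22 pairs. Leaving out 1 pair gave 371 (without ZT2) to 1279 (without ZT6) in all, with 496 without ZT18, 172 to 570 higher and 199 to 788 lower. For dark against light, 477 became 229 to 715.

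The mean of Per2 turned negative with offset 1 (-0.0036), quantile normalization (-0.072), array weights (-0.031), the keratin associated protein (-0.028), olfactory (-0.034) or liver (-0.039) score as a covariate and without the ZT10 and ZT22 pairs (-0.043). That of Nr1d1 turned positive with quantile normalization (0.0057) and the olfactory score (0.014), and that of Gsta4 without the ZT2, ZT10 and ZT22 pairs (0.0097). Leaving out 1 pair gave -0.13 to 0.0055 for Arntl, -0.049 to 0.25 for Dbp, -0.12 to 0.15 for Nr1d1 and -0.18 to 0.13 for Per2. The causes were not tested. Depth is not defined for arrays. Genes near the dim end, and shifts smaller than the median 95% interval's reach of 0.17, are the limit.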
